A study of Homo sapiens with 2 samples.

Results

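Semaphorins, plexins and neuropilins form a family of guidance ligands and receptors. It was read in the RNA of H1993 cells selected for resistance to a MET inhibitor and of their parental line. H1993 is an established human lung adenocarcinoma cell line in which MET, the gene of a receptor tyrosine kinase, is amplified. The resistant cells had been grown in PHA665752, a compound that blocks the MET kinase, at concentrations raised from 1 nM to 1 µM. They were then kept at 1 µM and held without drug for 1 week before experiments. The labels give PHA665752 as the treatment of the resistant library and DMSO as that of the parental library. Whether the cells were in drug at RNA extraction is not stated, nor whether the resistant line is a clone or a pool, so selection and drug exposure cannot be told apart. Every symbol of the count table that named a semaphorin, a plexin, a plexin domain containing protein or a neuropilin was taken, which gave 33 genes of 18944. These were 20 semaphorins, 9 plexins, 2 PLXDC genes and 2 neuropilins.

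Semaphorins are ligands with a shared sema domain. Class 3 members are secreted, classes 4 to 6 span the membrane and class 7 is held by a lipid anchor. Most class 3 ligands bind a neuropilin, which has only a short cytoplasmic tail and works beside a class A plexin, while membrane semaphorins bind plexins directly. The plexin cytoplasmic part turns off small GTPases of the RAS and RAP type, loosening adhesion and the actin skeleton. In epithelial tumours class B plexins are known to associate with MET and with ERBB2, and neuropilins also bind vascular endothelial growth factors.

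The resistant library held 17086748 counts and the parental one 16723181, and with 1 library per group no difference has a replicate check or a p-value. Levels are given as CPM, a count relative to the size of its library after scaling by TMM, the trimmed mean of M-values. Each ratio is resistant over parental and carries an exact 95% interval that covers counting error only. A gene was tested at 1 CPM or more in at least 1 library, and called higher or lower when it differed at least 2-fold with an interval that left out equality. Markers of the epithelium were abundant in both libraries: KRT8, a keratin of simple epithelia, stood at 3390 CPM in the resistant and 2670 CPM in the parental library. The adhesion gene EPCAM was 2.38-fold lower in the resistant library. Of 4 lung lineage markers only NKX2-1, the lung transcription factor, exceeded 2 counts, with 101 counts in the resistant and 70 in the parental library. The 6 endothelial markers summed to 29.3 CPM in the resistant and 0.535 CPM in the parental library, nearly all from CDH5, with PECAM1, VWF, TEK, CLDN5 and EMCN at 0 to 3 counts. The 8 fibroblast markers summed to 15.1 and 20.9 CPM in the resistant and the parental library, nearly all from COL1A1, and the 6 immune markers to 2.59 and 2.08 CPM. Their part in the differences below was not tested. Fewer cells of a type and less RNA per cell cannot be told apart in such bulk libraries.

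All 33 genes had at least 1 count and 28 were tested. Of these, 5 were at least 2-fold higher in the resistant library, where 12.1% of all 12245 tested genes were. Another 8 were at least 2-fold lower, where 8.29% of all tested genes were. Together 46.4% of the tested family members passed, beside 20.4% of all tested genes. The higher ones were the ligand genes SEMA3D, SEMA3E, SEMA4F and SEMA6D, with PLXDC2. The lower ones were the ligand genes SEMA3C, SEMA4B, SEMA4C, SEMA5A and SEMA7A, and the receptor genes NRP2, PLXND1 and PLXNA4. The family's median log2 ratio was -0.11, and 0.00 over all tested genes, while the median size of the ratio without its sign was 0.65 and 0.41. At 10 CPM or more in at least 1 library, 10 of 22 family members passed, 4 higher and 6 lower, beside 14.6% of 9697 genes. Of these called members, SEMA3D and PLXDC2 reached 10 CPM in the resistant library alone, and NRP2 and SEMA7A in the parental one alone. At this cut their direction was fixed. The 1 CPM filter admitted 5 genes through 1 library alone: SEMA6A, SEMA6D and PLXNC1 through the resistant library, and SEMA5A and PLXNA4 through the parental one. For these the filter fixed the direction.

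**Figure D1:**
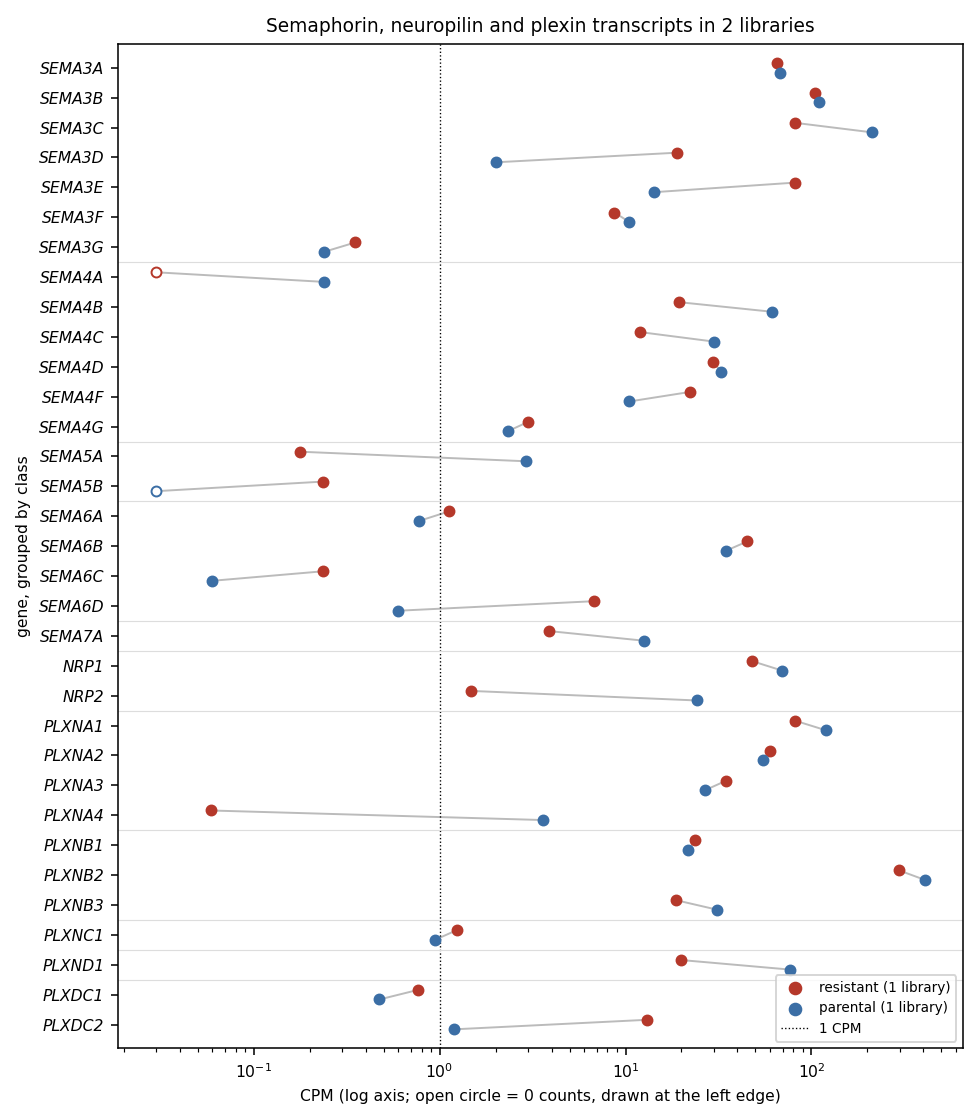
Level of each of the 33 genes in CPM on a log axis, with the resistant library drawn above the parental one in each row and the dotted line at 1 CPM. Among tested genes the long connecting lines belong to SEMA3D, SEMA3E, SEMA6D and PLXDC2 on the higher side, and to NRP2, PLXND1, SEMA5A and PLXNA4 on the lower side. A level of 0 counts, as for SEMA4A in the resistant and SEMA5B in the parental library, is an open circle at the left edge. The line lengths of these untested genes have no meaning.

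The secreted class 3 ligands split in both directions. SEMA3C, which can signal through either neuropilin and through PLXND1, had 1383 counts (81.5 CPM) in the resistant library, against 3561 counts (212 CPM) in the parental library. It was 2.60-fold lower (2.44 to 2.76). SEMA3E, the ligand that binds PLXND1 without a neuropilin, had 1389 counts (81.8 CPM) in the resistant library, against 241 counts (14.3 CPM) in the parental library. It was 5.72-fold higher (4.98 to 6.58). SEMA3D, a related class 3 ligand, had 321 counts (18.9 CPM) in the resistant library, against 34 counts (2.02 CPM) in the parental library, 9.36-fold higher (6.56 to 13.8).

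The remaining class 3 ligands stayed near equality. SEMA3A, the prototype that repels growing axons through NRP1, stood at 65.0 CPM in the resistant and 68.0 CPM in the parental library, with a log2 ratio of -0.06 (-0.19 to 0.06). SEMA3B, known as a tumour suppressor candidate of the short arm of chromosome 3, stood at 105 and 110 CPM in the resistant and the parental library, with a log2 ratio of -0.07 (-0.17 to 0.02). SEMA3F, a ligand with preference for NRP2, stood at 8.72 and 10.5 CPM, with a log2 ratio of -0.27 (-0.59 to 0.05). For these 3 genes the counting interval included equality, and its far end excluded a 2-fold difference. SEMA3G, with 6 counts in the resistant and 4 in the parental library, was too scarce to be tested.

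Levels of different genes can be set side by side only per transcript length. The deposited log2 values behave as log2 of a length-scaled level plus 1, and were read back on that scale. On it SEMA3B led class 3 in the resistant library at 39.0, followed by SEMA3C at 15.8, SEMA3E at 12.3 and SEMA3A at 11.5. In the parental library SEMA3C at 41.0 and SEMA3B at 40.4 were close, followed by SEMA3A at 12, SEMA3F at 3.06 and SEMA3E at 2.14. SEMA3C held 18.8% of the summed class 3 level in the resistant and 41.4% in the parental library. SEMA3E held 14.6% in the resistant and 2.17% in the parental library. The summed class 3 level was 84.1 in the resistant and 98.9 in the parental library.

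**Figure D2:**
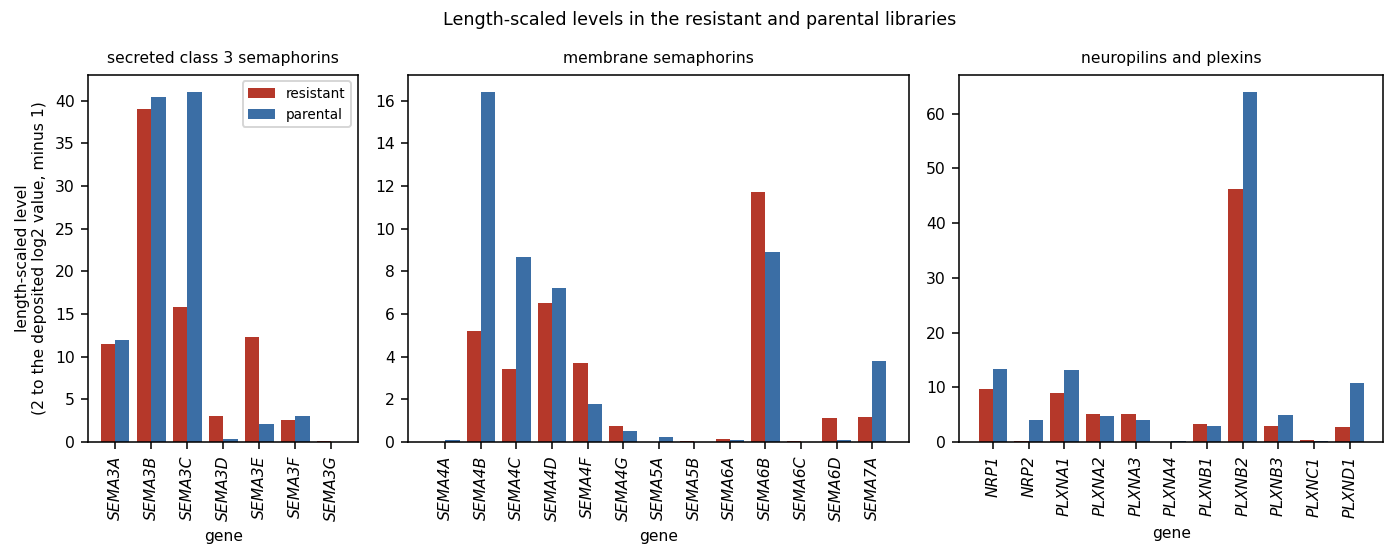
Length-scaled level (2 to the power of the deposited log2 value, minus 1) of class 3 semaphorins, membrane semaphorins, and neuropilins with plexins, with 1 bar for each library and each axis starting at 0. SEMA3C, SEMA4B, NRP2 and PLXND1 have the shorter bar in the resistant library and SEMA3E the taller one, while SEMA3A and SEMA3B have bars of like height.

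SEMA3C, SEMA3E, SEMA3A and SEMA3D lie near each other on chromosome 7. In the RefSeq gene order of GRCh38.p14, taking genes of the count table only, the order runs SEMA3C, HGF, CACNA2D1, PCLO, SEMA3E, SEMA3A, SEMA3D. The calcium channel subunit gene CACNA2D1 had 199 counts in the resistant and 49 in the parental library, with a log2 ratio of 2.0 (1.55 to 2.49). The presynaptic scaffold gene PCLO had 389 counts in the resistant and 30 in the parental library, at 3.66 (3.15 to 4.27). HGF, the gene of the MET ligand, had 0 counts in both libraries. The run of higher genes was therefore broken by SEMA3A, which lies between SEMA3E and SEMA3D, and SEMA3C at its end was lower. Of the nearest tested genes outside, GNAI1 (0.80), DMTF1 (0.31) and TMEM243 (0.90) did not pass the 2-fold rule. CD36, beside SEMA3C, was lower at -1.68 (-3.57 to -0.28), with 5 counts in the resistant and 17 in the parental library. CD36 was tested through the parental library alone, which fixed its direction.

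**Figure D3:**
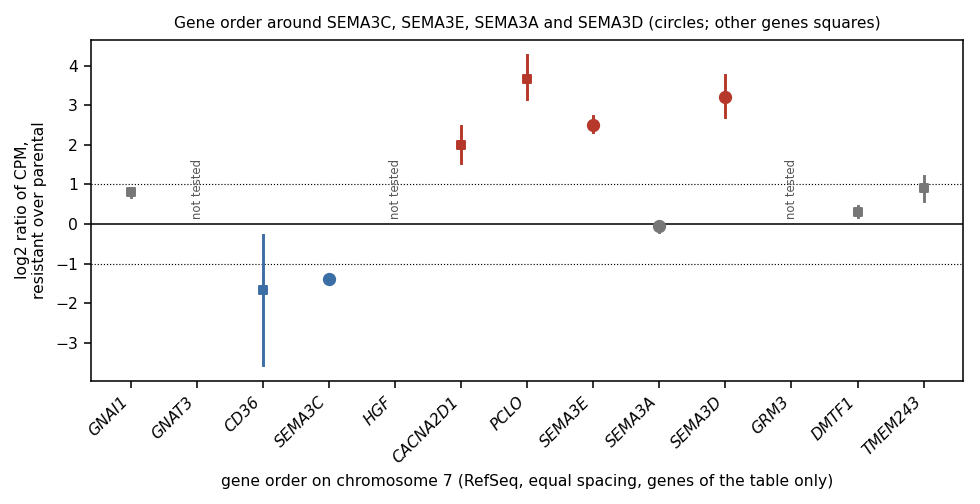
Log2 ratio of CPM, resistant over parental, for consecutive genes of chromosome 7 in RefSeq order with equal spacing, with circles for semaphorins, squares for other genes and bars for the exact 95% counting interval. CACNA2D1, PCLO, SEMA3E and SEMA3D lie above the dotted line at 1, SEMA3A lies near 0, and SEMA3C lies below -1.

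Both neuropilins were below their parental level, by very different amounts. NRP2, the co-receptor with preference for SEMA3F and for VEGFC, had 25 counts (1.47 CPM) in the resistant library, against 406 counts (24.1 CPM) in the parental library. It was 16.4-fold lower (10.9 to 25.6). NRP1, the co-receptor of SEMA3A and VEGFA, had 810 counts (47.7 CPM) in the resistant library, against 1170 counts (69.5 CPM) in the parental library. Its 1.46-fold difference (1.33 to 1.59) fell short of the rule. Per length, NRP1 exceeded NRP2 by 37.8-fold in the resistant library and by 3.38-fold in the parental library.

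Of the 9 plexins, 2 were called lower and 0 higher, 22.2% together, near the 20.4% of all tested genes. PLXND1, the receptor of SEMA3E and a regulator of vessel patterning, had 336 counts (19.8 CPM) in the resistant library, against 1284 counts (76.3 CPM) in the parental library. It was 3.85-fold lower (3.41 to 4.36). The SEMA3E and PLXND1 genes thus differed in opposite directions. Per length, the level of PLXND1 was 0.229 times that of SEMA3E in the resistant library and 5.05 times that of SEMA3E in the parental library. PLXNA4, a class A plexin known from axon guidance, had 1 count (0.0589 CPM) in the resistant library, against 61 counts (3.62 CPM) in the parental library. Its ratio was 61.5-fold lower, with a wide interval (10.6 to 2470).

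The proximal promoters of SEMA3E, SEMA3C, PLXND1 and NRP2 are shown as those of 2 ligands and 2 receptors of the class 3 system that passed the rule, and because they differ in CG dinucleotides. Each sequence is the 250 bases before the annotated start, read 5′ to 3′ on the strand of the gene, from RefSeq on GRCh38.p14, with every CG in capitals. For SEMA3E the upstream of 2 annotated starts is shown (chr7:83649140-83649389, minus strand, 6 CG). For SEMA3C the downstream of 2 starts is shown (chr7:80919052-80919301, minus strand, 39 CG). PLXND1 (chr3:129606677-129606926, minus strand, 41 CG) and NRP2 (chr2:205682251-205682500, plus strand, 29 CG) have 1 start each.

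SEMA3E: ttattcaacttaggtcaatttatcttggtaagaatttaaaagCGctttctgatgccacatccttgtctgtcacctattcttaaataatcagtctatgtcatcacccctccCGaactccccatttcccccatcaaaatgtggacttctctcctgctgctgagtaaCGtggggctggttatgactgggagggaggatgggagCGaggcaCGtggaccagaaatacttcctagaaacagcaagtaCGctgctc
SEMA3C: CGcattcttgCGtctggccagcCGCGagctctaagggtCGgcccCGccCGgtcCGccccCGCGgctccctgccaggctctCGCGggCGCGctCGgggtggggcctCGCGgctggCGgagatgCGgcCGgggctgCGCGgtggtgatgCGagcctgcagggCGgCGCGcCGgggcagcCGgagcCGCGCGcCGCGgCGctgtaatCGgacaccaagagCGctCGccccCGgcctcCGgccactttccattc
PLXND1: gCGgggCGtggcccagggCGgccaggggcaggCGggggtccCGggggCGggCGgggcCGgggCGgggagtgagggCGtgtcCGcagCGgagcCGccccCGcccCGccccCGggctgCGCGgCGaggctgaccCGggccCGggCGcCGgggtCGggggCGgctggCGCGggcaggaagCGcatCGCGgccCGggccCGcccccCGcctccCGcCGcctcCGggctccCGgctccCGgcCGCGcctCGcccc
NRP2: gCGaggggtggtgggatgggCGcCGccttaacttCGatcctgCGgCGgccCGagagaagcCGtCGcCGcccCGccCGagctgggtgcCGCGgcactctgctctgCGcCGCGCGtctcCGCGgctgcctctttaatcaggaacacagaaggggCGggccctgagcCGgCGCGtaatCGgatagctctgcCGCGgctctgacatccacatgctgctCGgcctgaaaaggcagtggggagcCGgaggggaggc

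Over the 35116 annotated starts of the RefSeq table the median was 11 CG in this window. At least 41 CG, as at PLXND1, were found at 1.70% of them, and at most 6 CG, as at SEMA3E, at 41.1%. The other SEMA3E start had 1 CG, and the other SEMA3C start had 2. Taking the start with most CG for each gene, the 5 higher genes had 6 to 29 CG with a median of 13, and the 8 lower genes had 23 to 41 with a median of 31.5. The 11 of 15 genes that passed neither way and had an entry had 6 to 46, with a median of 26. These values take the largest count per gene, while the median of 11 is over single starts. The largest count per gene was not computed for all genes, so the group medians cannot be set against 11. These counts describe the reference sequence. No methylation was measured, and which start was used in these cells is not known from gene counts.

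The other class A and class B plexins passed in neither direction. PLXNB2, a receptor of SEMA4C and the plexin with the highest level per length in both libraries, stood at 295 CPM in the resistant and 407 CPM in the parental library. It was 1.38-fold lower (1.33 to 1.43) and held 61.9% of the summed plexin level in the resistant and 60.9% in the parental library. PLXNB1, the SEMA4D receptor that can couple to MET, stood at 23.7 CPM in the resistant and 21.7 CPM in the parental library, 1.09-fold higher (0.946 to 1.26). PLXNB3, a receptor of SEMA5A, stood at 18.7 CPM in the resistant and 31.2 CPM in the parental library, 1.67-fold lower (1.45 to 1.93).

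The common class A plexins serve as signalling partners of the neuropilins. PLXNA1 stood at 82.0 CPM in the resistant and 120 CPM in the parental library, 1.47-fold lower (1.37 to 1.57). PLXNA2 had a log2 ratio of 0.11 (-0.02 to 0.24) and PLXNA3 of 0.38 (0.20 to 0.56). By length-scaled level PLXND1 ranked 7 of 9 plexins in the resistant library and 3 in the parental library, while PLXNA1 ranked 2 in both. PLXNC1, the SEMA7A receptor, had only 21 counts in the resistant and 16 in the parental library. Its interval reached from -0.63 to 1.42, so a 2-fold higher level could not be told from equality at this depth.

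**Figure D4:**
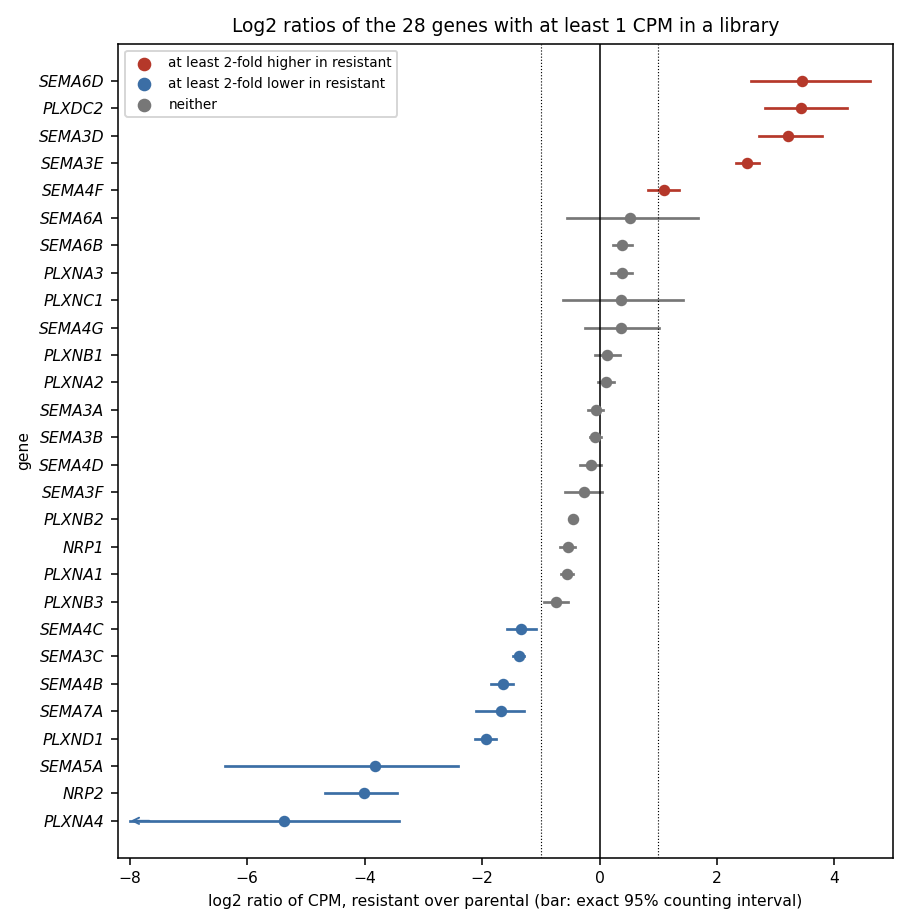
Log2 ratio of CPM, resistant over parental, of the 28 tested genes in order of size, with bars for the exact 95% counting interval, dotted lines at 2-fold and an arrow where the PLXNA4 interval leaves the axis. SEMA6D, PLXDC2, SEMA3D, SEMA3E and SEMA4F stand at the top, and PLXNA4, NRP2, SEMA5A and PLXND1 at the bottom.

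Class 4 ligands span the membrane and can be shed from it. SEMA4B had 331 counts (19.5 CPM) in the resistant library, against 1033 counts (61.4 CPM) in the parental library, 3.15-fold lower (2.78 to 3.57). SEMA4C, the PLXNB2 ligand, had 203 counts (12 CPM) in the resistant library, against 507 counts (30.1 CPM) in the parental library, 2.52-fold lower (2.14 to 2.98). SEMA4F went the other way, with 378 counts (22.3 CPM) in the resistant library, against 176 counts (10.5 CPM) in the parental library. Its 2.13-fold difference had an interval (1.78 to 2.56) that reached below 2-fold.

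SEMA4D, the PLXNB1 ligand also known as CD100, stood at 29.5 CPM in the resistant and 32.8 CPM in the parental library, with a log2 ratio of -0.15 (-0.33 to 0.03). Neither gene of the SEMA4D and PLXNB1 pair therefore reached 2-fold, and both intervals excluded it. SEMA4G had 51 counts in the resistant and 39 in the parental library, with an interval of -0.25 to 1.02. SEMA4A, known for its role in T cells, had 0 counts in the resistant and 4 in the parental library and was not tested. Of the 33 family genes 21 overlap another RefSeq gene, called ones such as PLXNA4, SEMA5A and SEMA6D included. Whether strand was used in counting is not given, so reads could have been split between overlapping genes. For 4 members the overlapping gene is also in the table. SEMA4D, SEMA4G, PLXNA3 and PLXNC1 overlap SECISBP2, MRPL43, LAGE3 and CEP83. The log2 ratios of these 4 neighbours lay between -0.37 and 0.22.

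Of the other membrane ligands 1 was higher and 2 were lower, beside 12.1% higher and 8.29% lower among all tested genes. Class 6 had 1 higher of 3 tested genes, and the single tested genes of classes 5 and 7 were lower. SEMA6D was tested through the resistant library alone and SEMA5A through the parental one, which fixed their direction. SEMA6D, known in chick and mouse as a ligand of PLXNA1, had 115 counts (6.77 CPM) in the resistant library, against 10 counts (0.594 CPM) in the parental library, 11.4-fold higher (5.98 to 24.4). SEMA7A, which binds PLXNC1 and also integrin receptors, had 66 counts (3.89 CPM) in the resistant library, against 210 counts (12.5 CPM) in the parental library, 3.21-fold lower (2.42 to 4.30). SEMA5A, a ligand with thrombospondin repeats, had 3 counts in the resistant and 49 in the parental library, 16.5-fold lower (5.31 to 82.6).

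SEMA6B, known in mouse as a ligand of PLXNA4, was the membrane semaphorin with the highest level per length in the resistant library, at 11.7, and the second in the parental library, at 8.89. In the parental library SEMA4B led at 16.4, and it stood at 5.22 in the resistant library. SEMA6B counts gave 45.2 CPM in the resistant and 34.5 CPM in the parental library, 1.31-fold higher (1.18 to 1.46). The PLXNA4 gene was at 1 count in the resistant library and was scarce in the parental one too, at 61 counts (3.62 CPM). Which plexins serve SEMA6B in these cells was not tested. SEMA6A had 19 counts in the resistant and 13 in the parental library and passed neither way. SEMA5B, with 4 counts in the resistant and 0 in the parental library, and SEMA6C, with 4 and 1 counts, were too scarce to be tested.

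The PLXDC genes encode membrane proteins that share a small domain with plexins and are receptors of pigment epithelium-derived factor, not of semaphorins. PLXDC2 had 223 counts (13.1 CPM) in the resistant library, against 20 counts (1.19 CPM) in the parental library, 11.1-fold higher (6.99 to 18.5). PLXDC1, first known from tumour endothelium, had 13 counts in the resistant and 8 in the parental library and was not tested. The vascular endothelial cadherin gene CDH5 was higher, with 495 counts in the resistant and 5 in the parental library, while the 5 other endothelial markers were at or near 0 in both. CDH5 was tested through the resistant library alone, which fixed its direction.

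With the deposited log2 values in place of the counts, SEMA4F (0.78), SEMA6D (0.96), PLXDC2 (0.90), SEMA5A (-0.29) and PLXNA4 (-0.34) did not differ by 1. If those values hold an added 1, as they behave, differences of scarce genes are smaller on their scale. The other 8 calls, SEMA3C, SEMA3D, SEMA3E, SEMA4B, SEMA4C, SEMA7A, NRP2 and PLXND1, passed with both.

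The VEGF ligands and receptors that share the neuropilins had 5 tested genes of 7 in the table, of which 2 were higher and 0 lower, beside 12.1% higher and 8.29% lower among all tested genes. Of these 5, PGF and FLT4 passed the filter through the resistant library alone, which fixed their direction. The median log2 ratio of 0.62 is that of PGF, with 25 counts in the resistant and 16 in the parental library, and its interval (-0.33 to 1.64) included equality. VEGFA, the NRP1-binding angiogenic factor, stood at 157 CPM in the resistant and 74.4 CPM in the parental library, 2.11-fold higher (1.98 to 2.26). FLT4, the VEGFC receptor, had 45 counts in the resistant and 3 in the parental library, 14.9-fold higher (4.78 to 74.8), though its deposited log2 values differed by only 0.59. VEGFC, a ligand of FLT4 and NRP2, had a log2 ratio of 0.05 (-0.14 to 0.24), beside the 16.4-fold lower NRP2. The receptor gene KDR had 0 counts in both libraries, and FLT1 had 11 counts in the resistant and 0 in the parental library.

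Partners of plexins and semaphorins at the membrane had 2 higher and 1 lower of 7 tested genes, beside 12.1% and 8.29% of all tested genes, with a median of -0.42. L1CAM, an adhesion molecule that forms a receptor complex with NRP1, had 4156 counts (245 CPM) in the resistant library, against 31 counts (1.84 CPM) in the parental library, 133-fold higher (93.5 to 196). ITGA1, the integrin chain that pairs with ITGB1, stood at 112 CPM in the resistant and 22.0 CPM in the parental library, 5.07-fold higher (4.53 to 5.68). ITGB1, with which it forms a receptor of SEMA7A, was at a log2 ratio of -0.17. MST1R, the receptor closest to MET and like it a partner of class B plexins, stood at 19.0 CPM in the resistant and 99.0 CPM in the parental library, 5.20-fold lower (4.61 to 5.88). MET itself, the gene with most counts of the list, stood at 3050 CPM in the resistant and 4860 CPM in the parental library and did not reach 2-fold, as PLXNB1 and PLXNB2 did not.

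Cytoplasmic effectors had 31 tested genes of 36, of which 4 were higher and 3 lower, 22.6% together beside 20.4% of all tested genes, with a median of 0.03. The filter admitted DPYSL3 through the resistant and FARP1 through the parental library alone. DPYSL3, a collapsin response mediator gene, had 653 counts in the resistant and 14 in the parental library, 46.3-fold higher (27.4 to 85.1). FYN, a kinase active downstream of SEMA3A receptors, stood at 98.4 CPM in the resistant and 26.4 CPM in the parental library, 3.73-fold higher (3.36 to 4.15). The GTPase genes RRAS, a substrate of plexins, and RHOD were 3.45-fold (2.66 to 4.52) and 2.04-fold (1.86 to 2.23) higher. FARP1, a guanine nucleotide exchange factor gene, had 16 counts in the resistant and 184 in the parental library, 11.6-fold lower (6.95 to 20.7). TIAM1 and DPYSL5 were 2.67-fold (1.84 to 3.95) and 2.34-fold (1.75 to 3.16) lower, though their deposited log2 values differed by -0.50 and -0.66. The RhoA exchange factors that bind class B plexins, ARHGEF11 and ARHGEF12, had log2 ratios of 0.02 and 0.48. GIPC1, the adaptor of the neuropilin tail, was at -0.84, and CFL1, the actin-severing gene with most counts of the list, at 0.42.

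Proteases that cut semaphorins or their receptors had 1 higher and 1 lower of 7 tested genes, 28.6% together beside 20.4% of all tested genes, with a median of -0.08. PCSK5 was tested through the parental library alone. PCSK5, a furin-like convertase gene, had 0 counts in the resistant and 111 counts (6.59 CPM) in the parental library. It was 37.3-fold lower if the 0 is taken as 3 counts, and its log2 interval reached up to -4.9. FURIN, the main convertase of class 3 semaphorins and the gene with most counts of the list, had a log2 ratio of 0.20 (0.11 to 0.28). ADAMTS1, a secreted protease known to cut SEMA3C, had 115 counts in the resistant and 22 in the parental library, 5.18-fold higher (3.27 to 8.59), with deposited log2 values that differed by 0.94.

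**Figure D5:**
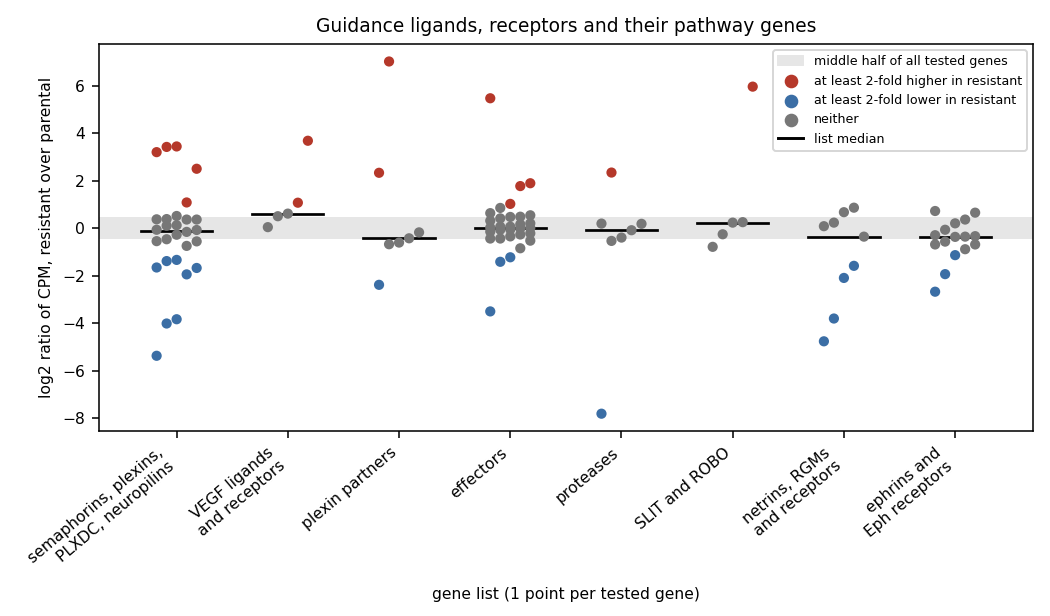
Log2 ratio of CPM, resistant over parental, of every tested gene of the family and of 7 related gene lists, with black lines for list medians and a grey band from -0.39 to 0.43 for the middle of all tested genes between the quartiles. L1CAM and DPYSL3 stand highest among the partners and effectors, and PCSK5 and SLIT2, each at 0 counts in 1 library, are drawn at their ratio with 0.5 added to each count, which is no bound.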

How the data were processed

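RNA of 2 libraries, 1 of the resistant and 1 of the parental line, was extracted with TRIzol and chloroform and prepared with a TruSeq kit, per the labels' protocols. Per the file headers, the deposited table holds raw counts and normalized log2 values for each gene symbol. FastQC and STAR, and both GRCh38 and hg19, are named per the submitters' processing notes, with no roles. The counting program, annotation and strand setting are not given in the sources used here, so no gene coordinates are given from the files.

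Counts were scaled with edgeR 4.0.16 (TMM, R 4.3.3), giving effective sizes of 16974207 in the resistant and 16834058 in the parental library. Log2 ratios had 0.5 added to each count. Intervals are conditional binomial (Clopper-Pearson, 95%, scipy 1.17.1) on the raw counts. They cover counting error only, since 1 library per group holds no variation between cultures or preparations. They also take reads as independent molecules, which reads are not, so they may be too narrow. The 2-fold rule and its filter are given above. With 1 library per group no test was made. Where no read was counted, up to 3 counts are allowed (0.177 CPM in the resistant, 0.178 CPM in the parental library).

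The method behind the deposited log2 values is not stated. For 8345 genes with at least 200 counts in both libraries, the count divided by (2 to the value, minus 1) was compared between libraries. Its ratio, resistant over parental, had a median of 1.0075, near the ratio of TMM sizes (1.0083), and lay within 2% of that median for 92.6% of genes and for 15 of 16 family members. NRP1, at 0.95, was the exception. Across genes the implied length followed the longest GENCODE transcript (Spearman rho 0.82 across 8209 genes, which are not independent replicates).

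Named genes were all 33 family members and, from each pathway list, those passing the rule and the most abundant, with others added after their values were seen. VEGFD was not analysed here. The members and lists were chosen with earlier results of these data known. Alternatives tried were total counts, DESeq2 1.42.0 size factors, no filter, 5 CPM, the deposited log2 values, 2 added to each count, and a whole interval beyond 2-fold.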

Additional observations from a re-analysis of the deposited data

How the results depend on the processing

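The 5 higher and 8 lower family members were the same genes with total counts, DESeq2 size factors, no filter on low counts, or 2 added to each count. The size ratio, resistant over parental, was 1.0217 by total counts and 1.0083 by TMM, and the DESeq2 sizes were equal. A change of scaling could therefore hardly alter a call, and dropping the filter could only add calls. At 5 CPM or more in at least 1 library, SEMA5A and PLXNA4 were no longer tested, and with the whole interval beyond 2-fold SEMA4F was lost. With the deposited log2 values 2 members were higher and 6 lower, all of them among the 13 above. Over all genes, those values gave 926 higher and 591 lower, and the whole interval beyond 2-fold left 655 lower, beside 1015. The stricter interval loses genes near 2-fold by construction, and why the deposited values lose genes was not tested. The median log2 ratio of tested members ranged from -0.15 to -0.06 over the alternatives. Of the called pathway genes, VEGFA, RHOD, TIAM1, DPYSL5, RGMA and EFNB1 did not have their whole interval beyond 2-fold. Of 28 member ratios 10 left their counting interval with the deposited log2 values and 0 with total counts, DESeq2 size factors or 2 added to each count. Of 24 counts over the gene lists, 6 moved by over 1.5 times with those values and 3 with the stricter interval. No called member changed sign under any alternative. No paired analysis was possible because each group has 1 library, and for the same reason no library could be left out. Depth limits the genes under about 50 counts, such as SEMA6A and PLXNC1, whose intervals span more than 2-fold.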

Other observations

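Other guidance families were also measured. Netrins, repulsive guidance molecules and their receptors had 4 lower and 0 higher of 9 tested genes, with a median log2 ratio of -0.35, beside 12.1% higher and 8.29% lower among all tested genes. NTN1 and UNC5B were under 1 CPM in the resistant library and were tested through the parental one alone, which fixed their direction. The ligand gene NTN1 had 11 counts in the resistant and 308 in the parental library, 28.2-fold lower (15.6 to 57.2). Its receptor genes UNC5B and NEO1 were 14.4-fold (8.66 to 25.6) and 4.26-fold (3.71 to 4.91) lower. RGMA, a ligand of NEO1, had 22 counts in the resistant and 66 in the parental library, 3.02-fold lower (1.84 to 5.15), with deposited log2 values that differed by -0.71. NTN4, with most counts, stood at 149 CPM in the resistant and 81.6 CPM in the parental library, with a log2 ratio of 0.87.

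Ephrins and Eph receptors had 3 lower and 0 higher of 16 tested genes, 18.8% together beside 20.4% of all tested genes, with a median of -0.35. EPHA6 was tested through the parental library alone. The receptor genes EPHA6 and EPHB6 were 6.55-fold (3.71 to 12.5) and 3.80-fold (3.49 to 4.15) lower, and the ligand gene EFNB1 2.19-fold (1.62 to 3.0), with deposited log2 values that differed by -0.71. EPHB4, with most counts, had a log2 ratio of -0.33. Of 5 tested SLIT and ROBO pathway genes, with a median of 0.24, the ligand gene SLIT2 alone passed, 20.0% beside 20.4% of all tested genes. SLIT1 and SLIT2 were tested through the resistant library alone. SLIT2 had 31 counts in the resistant and 0 in the parental library. It was 10.2-fold higher if the 0 is taken as 3 counts, and its log2 interval reached down to 2.97. Its deposited log2 values differed by 0.36. SRGAP1, with most counts, was at -0.25, and the receptor gene ROBO1 at -0.78.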
